A study of Rattus norvegicus with 24 samples.

Results

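The genes of mitochondrial fatty acid oxidation and ketogenesis were followed in liver RNA of Zucker rats, lean or obese, that were fed with or without ecdysterone. The 32 genes were chosen by symbol from the enzymes, carriers and regulators of the pathway, with earlier results of these data known. All 32 were found among the 23188 transcripts of the array. The RNA of 24 rats had been hybridised to Clariom S arrays of Affymetrix (a separate array for each rat), and the 6 rats of a group were drawn at random from its 8. All rats were male and 25 weeks old when the feeding period of 4 weeks began. The obese rats were homozygous for the fatty allele of the leptin receptor gene (fa/fa, Crl:ZUC-Leprfa), and the lean rats were heterozygous carriers of the same allele (fa/+), so that no rat of the study was free of it. Groups LC (lean) and OC (obese) received a basal diet, and groups LE and OE received this diet with 0.5 g ecdysterone, a steroid of plants and insects, per kg. The rats had free access to feed and were not fasted before they were killed. They were housed in groups of 2, and the labels do not tie arrays to cages, so that p-values measure the spread between rats as if each were independent. Values are log2 signals, so that a difference of 1 is a 2-fold difference. In what follows, a transcript is called where its p-value from limma was under 0.05 after Benjamini-Hochberg adjustment over every transcript of that comparison.

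Long-chain fatty acids enter mitochondria as acylcarnitines. Carnitine palmitoyltransferase 1 on the outer membrane makes them, a carrier takes them across the inner membrane, and carnitine palmitoyltransferase 2 turns them back into acyl-CoA. Each round of β-oxidation then shortens the chain by an acetyl-CoA through an acyl-CoA dehydrogenase, a hydratase, a hydroxyacyl-CoA dehydrogenase and a thiolase, and separate dehydrogenases serve long, medium, short and branched chains. In liver a large share of the acetyl-CoA is made into ketone bodies, which are exported to other tissues, and the pathway is known to rise on fasting under the control of the nuclear receptor PPARα.

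Before the comparisons, the arrays themselves were compared. Array medians lay between 6.51 and 6.61, and each array correlated with the others of its group with a mean r of 0.983 to 0.988 over all transcripts. The hepatocyte marker list lay between 17.87 and 18.36 (mean log2 signal of 9 genes) on all arrays. Its genes Alb, Serpina1, Tf and Ttr had mean signals of 19.76 to 19.90, near the highest signal of any transcript (19.93). The narrow range of the list therefore says little about the arrays. As a measure of background, the mean signals of 1522 smell and taste receptor genes had a 95th percentile of 6.38. Of the 32 genes, 29 lay above it. The other 3 were Cpt1b, the muscle form of carnitine palmitoyltransferase 1, Oxct1, the enzyme with which tissues other than liver use ketone bodies, and Ucp3, an uncoupling protein of muscle, and nothing more than background can be read from their signals. Skeletal and heart muscle markers gave no call among 8 genes in any comparison.

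The promoters of 2 genes that stand head to head in the rat genome are shown first, since both genes were called in the comparison of obese and lean rats. Hadhb and Hadha encode the β and α subunits of the mitochondrial trifunctional protein, which carries out the last steps of each round for long chains. In the RefSeq annotation of GRCr8, Hadhb lies on chromosome 6 at 31873404 to 31907557 on the minus strand and Hadha at 31907801 to 31947434 on the plus strand, so that 243 bases lie between the outermost annotated ends and both are transcribed away from 1 shared stretch. The promoter windows below (RefSeq, GRCr8) run from 250 bases before to 50 bases after an annotated transcript start, which for Hadhb lies inside the outermost end of the gene, and the 2 windows share 200 bases. Capitals mark GGGCGG, the core of a GC box, on either strand.
Hadhb promoter, chr6:31907451-31907750, minus strand: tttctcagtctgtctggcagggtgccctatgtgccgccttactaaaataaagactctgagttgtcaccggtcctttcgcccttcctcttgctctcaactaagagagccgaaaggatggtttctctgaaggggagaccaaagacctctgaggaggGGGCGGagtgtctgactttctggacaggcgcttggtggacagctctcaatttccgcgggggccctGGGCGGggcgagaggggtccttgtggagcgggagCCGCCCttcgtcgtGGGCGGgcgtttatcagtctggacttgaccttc
Hadha promoter, chr6:31907551-31907850, plus strand: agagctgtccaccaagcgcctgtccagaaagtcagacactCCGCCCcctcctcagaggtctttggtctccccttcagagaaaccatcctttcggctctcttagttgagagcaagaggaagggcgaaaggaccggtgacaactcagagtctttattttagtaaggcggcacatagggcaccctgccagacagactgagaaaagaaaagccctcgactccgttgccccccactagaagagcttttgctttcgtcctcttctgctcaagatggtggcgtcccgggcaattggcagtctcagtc
The window of Hadhb held 4 copies of GGGCGG, and that of Hadha held 1, which is one of the same 4 read from the other strand. Windows were found for 28 of the 32 genes (Acadl, Acaa2, Cpt1b and Decr1 had no entry), and 21 of these 28 held a GGGCGG, against 34.9% of all 27457 rat promoter windows. A direct repeat of AGGTCA with 1 base between the copies, the kind of site that PPARα binds as a pair with RXR, was searched with up to 2 mismatches on both strands. It was found in 6 of 28 windows (Acadvl, Crat, Echs1, Etfa, Slc25a20, Ucp3) and in 3.71% of all windows. Slc25a20 is the one of these 6 that was called between genotypes, in the effect averaged over both diets alone. Its match is in capitals in the window below.
Slc25a20 promoter, chr8:118243323-118243622, plus strand: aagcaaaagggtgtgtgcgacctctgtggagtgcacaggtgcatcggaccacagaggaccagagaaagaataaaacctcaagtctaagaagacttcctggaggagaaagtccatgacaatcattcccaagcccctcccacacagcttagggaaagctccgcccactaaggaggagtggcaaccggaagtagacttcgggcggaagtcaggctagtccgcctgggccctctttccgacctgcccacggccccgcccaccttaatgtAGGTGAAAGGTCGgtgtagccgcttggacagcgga
The window of Acadm, one of the genes that were lower in obese rats, held TGACGTCA, the full palindrome of a cyclic AMP response element, in capitals below. The window of Ppargc1a, which was not called, held the same exact palindrome. With up to 1 mismatch this element was found in 6 of 28 windows (Acad9, Acadm, Eci2, Hadh, Oxct1, Ppargc1a) and in 13.7% of all. Of these genes Acad9 was called higher and Acadm lower. The share of exact matches over all windows was not counted. TCAAGGTCA, the element of oestrogen-related receptors, was found with up to 1 mismatch in 4 of 28 and in 7.06% of all.
Acadm promoter, chr2:245542815-245543114, minus strand: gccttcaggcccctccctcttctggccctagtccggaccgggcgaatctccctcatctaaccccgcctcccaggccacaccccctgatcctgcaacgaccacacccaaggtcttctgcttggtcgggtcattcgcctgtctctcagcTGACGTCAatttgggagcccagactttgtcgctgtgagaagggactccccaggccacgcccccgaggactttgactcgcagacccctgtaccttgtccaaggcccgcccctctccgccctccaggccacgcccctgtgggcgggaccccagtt
A match describes the letters of a window, and binding was not measured.

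The first question was whether the pathway differs between obese and lean rats. Most of the genes with a called difference were higher in obese rats, by 1.35-fold (Acad9) to 1.99-fold (Hadhb) in the averaged effect. Among them were both subunits of the trifunctional protein, 3 of the 5 genes grouped here as long-chain dehydrogenases, the inner-membrane part of the carnitine shuttle and Ucp2. The medium-chain dehydrogenase Acadm and the branched-chain dehydrogenase Acadsb were lower. In OC vs. LC, 5 of the 32 genes were called higher (Hadhb, Ucp2, Acadl, Hadha, Acad9), where 1.44% of all transcripts were, and 0 lower, where 1.15% were. In OE vs. LE, which shares no rat with OC vs. LC, 5 were called higher (Ucp2, Hadhb, Acadl, Decr1, Acad11), where 1.07% of all transcripts were, and 0 lower, where 1.04% were. Averaged over both diets, 10 were higher, where 3.56% of all transcripts were, and 2 were lower, where 2.95% were. Transcripts with higher signals are called more often, and in the brighter part of the table (signal above the median, 29 of the genes) 14 were called in the averaged effect, where 13.6% of transcripts were, against 6.52% of the whole table. The median difference of the 32 genes was 0.35 in OC vs. LC, 0.13 in OE vs. LE and 0.25 in the averaged effect, beside medians of -0.0038, -0.0044 and -0.0055 over all transcripts. The difference had the same sign on both diets for 27 of 32 genes (84.4%) and for 61.3% of all transcripts. Since the 32 genes were chosen with earlier results of these data known, these shares and medians describe the list and are no test of it. With the criteria of the methods (fold over 1.3 and unadjusted p under 0.05), limma gave 12 higher and 1 lower in OC vs. LC, where 5.66% and 4.86% of all transcripts passed, and 9 higher and 3 lower in OE vs. LE, where 5.4% and 4.76% did. The methods' t-test under the same criteria gave 12 and 1 (4.76% and 3.92% of all transcripts) in OC vs. LC, and 8 and 3 (4.2% and 3.83%) in OE vs. LE.

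**Figure D1:**
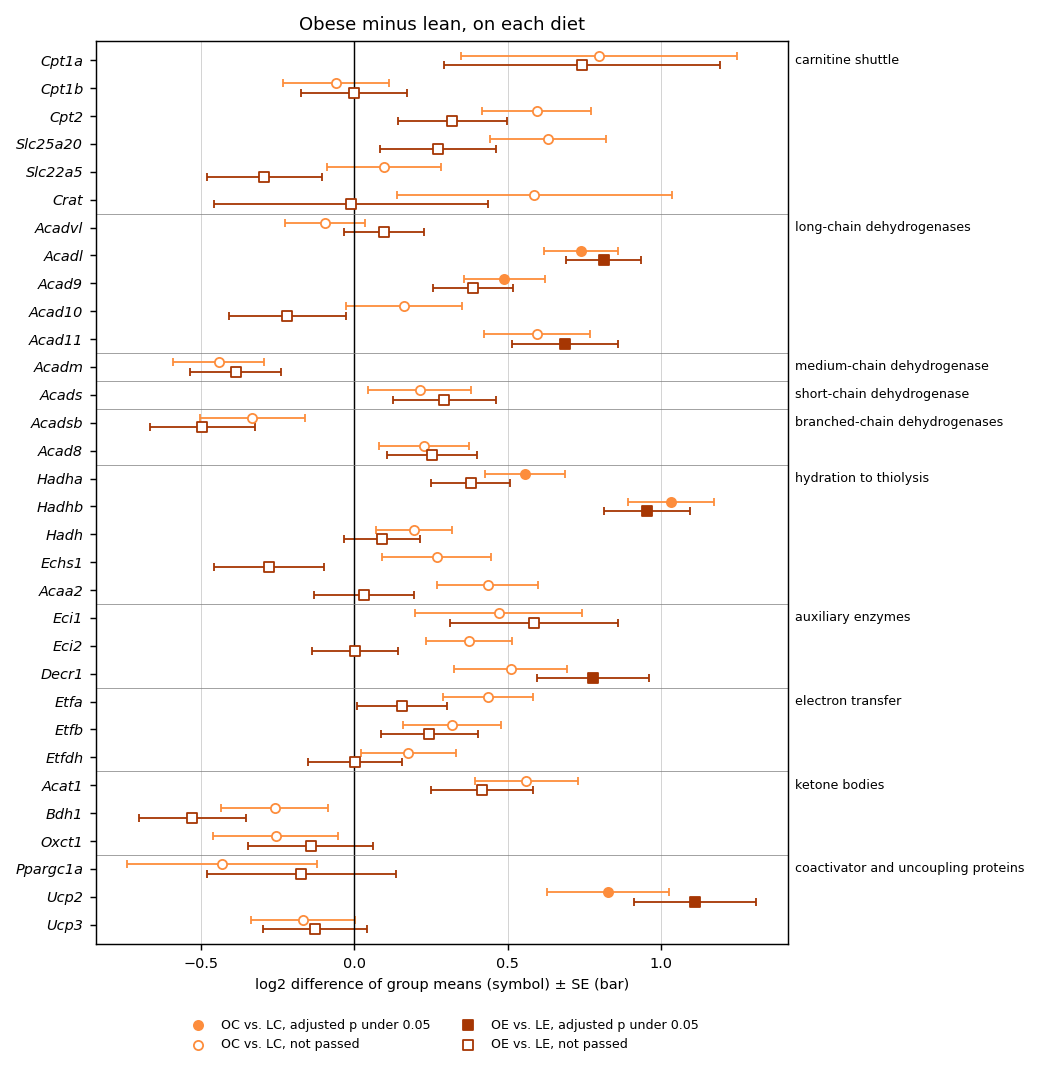
Log2 difference between obese and lean rats (x axis) for each of the 32 genes (y axis, grouped by role), with circles for OC vs. LC and squares for OE vs. LE (6 rats per group), bars for the SE and filled symbols for adjusted p under 0.05. Hadhb, Acadl and Ucp2 are filled on both diets, and no gene left of 0 is filled.

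Both genes of the trifunctional protein were called higher in the averaged effect. For Hadhb the log2 signal was 12.93 to 13.39 in LC (median 13.16), 12.90 to 13.45 in LE (median 13.22), 13.67 to 14.43 in OC (median 14.25) and 13.91 to 14.48 in OE (median 14.07). Every one of the 12 obese rats was above every one of the 12 lean rats. The difference for Hadhb was 1.03 ± 0.14 (SE, adjusted p = 2.7e-05) in OC vs. LC and 0.95 ± 0.14 (SE, adjusted p = 1.1e-04) in OE vs. LE, and 0.99 ± 0.10 (SE, 1.99-fold higher, adjusted p = 5.1e-08, limma) averaged over both diets. For its partner gene Hadha, the log2 signal was 13.45 to 13.93 in LC (median 13.80), 13.54 to 14.15 in LE (median 13.78), 14.11 to 14.52 in OC (median 14.32) and 13.96 to 14.46 in OE (median 14.14). The groups OC and LC did not overlap for Hadha, and 3 of 6 rats of OE lay above all rats of LE. The averaged difference for Hadha was 0.47 ± 0.09 (SE, 1.38-fold higher, adjusted p = 0.00112, limma), and it was called in OC vs. LC (adjusted p = 0.0129) but not in OE vs. LE (adjusted p = 0.153, limma). Whether the 2 genes differed in their change was not tested, since each is measured by its own probes.

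The other genes of the same steps were not called. Hadh, the hydroxyacyl-CoA dehydrogenase of shorter chains, differed by 0.14 ± 0.09 (SE) in the averaged effect. Echs1 had log2 signals of 13.62 to 14.40 in LC (median 14.10), 14.06 to 14.56 in LE (median 14.39), 13.77 to 14.54 in OC (median 14.50) and 13.32 to 14.46 in OE (median 14.15). The groups of Echs1, the hydratase of short chains, overlapped on both diets, with 4 of 6 rats of OC above all rats of LC and 2 of 6 rats of OE below all rats of LE. Echs1 differed by 0.27 ± 0.18 (SE) in OC vs. LC and by -0.28 ± 0.18 (SE) in OE vs. LE. Signals of Acaa2 (log2) were 14.73 to 15.39 in LC (median 14.97), 14.81 to 15.66 in LE (median 15.13), 15.14 to 15.81 in OC (median 15.44) and 14.68 to 15.51 in OE (median 15.27). For Acaa2, the mitochondrial thiolase, 4 of 6 rats of OC were above all rats of LC and 0 of 6 rats of OE above all rats of LE. It differed by 0.43 ± 0.16 (SE) and by 0.03 ± 0.16 (SE), respectively. These 2 genes thus had a positive value on the control diet and a negative or smaller one on the ecdysterone diet, and the test of that change, the interaction of genotype and ecdysterone, had adjusted p = 1.00 for both (limma).

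Of the 5 genes grouped here as long-chain acyl-CoA dehydrogenases (Acadvl, Acadl, Acad9, Acad10, Acad11), 3 were called higher in the averaged effect. The grouping was chosen for this list, and the chain lengths that each enzyme uses were not measured. The log2 signal of Acadl was 13.97 to 14.45 in LC (median 14.21), 14.07 to 14.51 in LE (median 14.31), 14.80 to 15.09 in OC (median 14.93) and 14.81 to 15.31 in OE (median 15.14). Acadl, the long-chain enzyme itself (GRCr8 chromosome 9, 75783689 to 75822077), was thus higher in all 12 obese rats than in any lean rat, as Hadhb was. Non-overlap of all obese and all lean rats was found for these 2 of the 32 genes and for 0.522% of all transcripts. The averaged difference for Acadl was 0.78 ± 0.09 (SE, 1.71-fold higher, adjusted p = 3.1e-07, limma). It was called on both diets, with 0.74 ± 0.12 (SE, adjusted p = 3.1e-04) in OC vs. LC and 0.81 ± 0.12 (SE, adjusted p = 1.3e-04) in OE vs. LE. Its spread within groups was also small (residual SD 0.154, where 0.863% of transcripts had a smaller one).

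For Acad11 the log2 signal was 11.80 to 12.98 in LC (median 12.06), 11.77 to 12.39 in LE (median 12.21), 12.52 to 13.13 in OC (median 12.79) and 12.59 to 13.01 in OE (median 12.87). Acad11 is a family member with an added kinase-like domain. All rats of OE were above all rats of LE, while 1 rat of LC reached 12.98, above 5 of the 6 rats of OC. Averaged over both diets, Acad11 differed by 0.64 ± 0.12 (SE, 1.56-fold higher, adjusted p = 7.6e-04, limma), and it was called in OE vs. LE (adjusted p = 0.028) but not in OC vs. LC (adjusted p = 0.0602, limma). Acad9 had log2 signals of 9.55 to 10.17 in LC (median 9.87), 9.74 to 10.11 in LE (median 9.88), 10.10 to 10.49 in OC (median 10.38) and 9.88 to 10.54 in OE (median 10.32). Acad9 is also needed to assemble complex I of the respiratory chain. In both obese groups 5 of 6 rats lay above all lean rats on the same diet. Acad9 differed by 0.44 ± 0.09 (SE, 1.35-fold higher, adjusted p = 0.00245, limma) in the averaged effect. The call of Acad11 in OE vs. LE was lost on leaving out LE replicate 10, 11 or 12 or OE replicate 20, 21, 23 or 24 (adjusted p 0.0518 to 0.0721), and that of Acad9 in OC vs. LC on leaving out LC replicate 2, 3, 4, 5 or 6 or OC replicate 13, 14, 15, 16 or 18 (0.0523 to 0.112). The call of Acad9 in OC vs. LC was also lost under 4 of 11 other settings, which were the methods' t-test (Benjamini-Hochberg adjusted), a fit of these 2 groups alone, arrays centred on their median, and Dbp and Arntl as covariates (adjusted p 0.0551 to 0.132). Both kept their call in the averaged effect without any single array. The remaining 2 were not called. Acadvl, the very long-chain enzyme, differed by -8.75e-05 ± 0.09 (SE) and Acad10 by -0.03 ± 0.13 (SE) in the averaged effect.

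The medium-chain dehydrogenase went the other way. Signals of Acadm (log2) were 13.47 to 14.14 in LC (median 13.58), 13.74 to 14.11 in LE (median 13.89), 12.79 to 13.52 in OC (median 13.32) and 13.11 to 13.71 in OE (median 13.56). Acadm (GRCr8 chromosome 2, 245518693 to 245542864) starts the oxidation of medium chains. All 6 rats of OE lay below all rats of LE, and 4 of 6 rats of OC lay below all rats of LC. Averaged over both diets, the difference for Acadm was -0.42 ± 0.10 (SE, 1.33-fold lower, adjusted p = 0.0114, limma), and it kept its call without any single array, although neither diet alone passed (adjusted p = 0.123 and 0.226, limma). The log2 signal of Acads was 8.40 to 8.83 in LC (median 8.74), 8.19 to 9.27 in LE (median 8.53), 8.77 to 9.18 in OC (median 8.85) and 8.41 to 9.23 in OE (median 9.00). For Acads, the short-chain enzyme, 3 of 6 rats of OC were above all rats of LC, and OE lay inside the range of LE. Acads differed by 0.25 ± 0.12 (SE) and was not called (adjusted p = 0.25, limma).

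Of the 2 branched-chain dehydrogenases 1 was called lower. For Acadsb the log2 signal was 12.39 to 13.12 in LC (median 12.92), 12.53 to 13.44 in LE (median 12.80), 12.14 to 12.94 in OC (median 12.49) and 11.98 to 12.66 in OE (median 12.42). Acadsb acts on the breakdown product of isoleucine. The groups overlapped on both diets, with 2 of 6 rats of OC and 4 of 6 rats of OE below all lean rats on the same diet. Averaged over both diets, Acadsb differed by -0.41 ± 0.12 (SE, 1.33-fold lower, adjusted p = 0.034, limma). This call was lost on leaving out 1 of 11 arrays in turn (LC replicate 1, 2, 4 or 5, LE replicate 11 or 12, OC replicate 13, 14 or 16, OE replicate 22 or 24, adjusted p 0.0513 to 0.0679), and with the mean of both probe sets of the gene in place of the brighter one (0.0750), after quantile normalisation (0.0536) or with the clock genes Dbp and Arntl as covariates (0.145). On a single diet Acadsb was not called (adjusted p = 0.427 in OC vs. LC and 0.158 in OE vs. LE, limma). The dimmer probe set of Acadsb had an averaged difference of -0.26 ± 0.13 (SE, adjusted p = 0.295, limma). Acad8, the enzyme of valine breakdown, differed by 0.24 ± 0.10 (SE) and was not called.

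**Figure D2:**
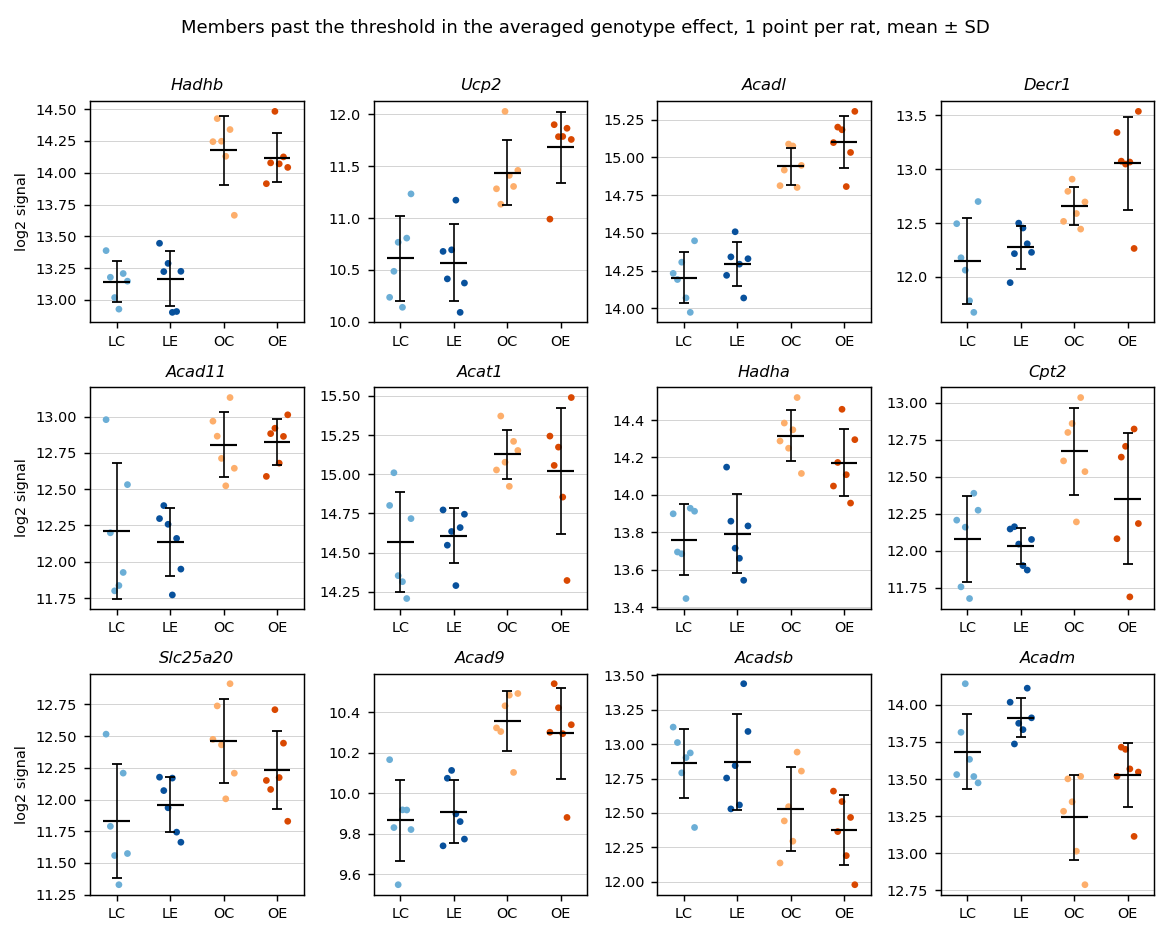
Log2 signal (y axis) of each rat in the groups LC, LE, OC and OE (x axis, 6 rats each) for the 12 genes called in the averaged genotype effect, ordered from the largest positive to the largest negative difference, with bars for the mean ± SD. For Hadhb and Acadl all obese rats lie above all lean rats, and Acadsb and Acadm are the 2 genes with lower values in obese rats.

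Of the auxiliary enzymes of unsaturated fatty acids, 1 of 3 was called higher. Decr1 had log2 signals of 11.67 to 12.70 in LC (median 12.12), 11.95 to 12.50 in LE (median 12.27), 12.44 to 12.91 in OC (median 12.64) and 12.26 to 13.53 in OE (median 13.07). Decr1 encodes the mitochondrial dienoyl-CoA reductase (GRCr8 chromosome 5, 34208195 to 34236074). In OE 5 of 6 rats were above all rats of LE, and OE replicate 23 was at 12.26, inside the lean range. The averaged difference for Decr1 was 0.64 ± 0.13 (SE, 1.56-fold higher, adjusted p = 0.00148, limma), with 0.78 ± 0.18 (SE, adjusted p = 0.0184) in OE vs. LE, where it was called, and 0.51 ± 0.18 (SE, adjusted p = 0.172) in OC vs. LC, where it was not. The call in OE vs. LE was lost without LE replicate 7 or OE replicate 24 (adjusted p 0.0539 and 0.0597) and with the methods' t-test (Benjamini-Hochberg adjusted, 0.131). Eci1, an enoyl-CoA isomerase, had a larger spread than 95.8% of transcripts and differed by 0.53 ± 0.19 (SE) (adjusted p = 0.11, limma). Signals of Eci2 (log2) were 12.98 to 13.83 in LC (median 13.33), 13.50 to 13.73 in LE (median 13.61), 13.47 to 14.11 in OC (median 13.74) and 13.46 to 13.93 in OE (median 13.51). Eci2, another isomerase, had overlapping groups throughout and differed by 0.19 ± 0.10 (SE).

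In the averaged effect the carnitine shuttle had 2 of 6 genes called, both on the inner membrane, and neither was called on a single diet. The log2 signal of Cpt2 was 11.68 to 12.39 in LC (median 12.18), 11.87 to 12.16 in LE (median 12.06), 12.20 to 13.03 in OC (median 12.70) and 11.69 to 12.82 in OE (median 12.41). Cpt2 was above all rats of LC in 5 of 6 rats of OC, while OE replicate 22 was at 11.69, below all rats of LE. Cpt2 differed by 0.46 ± 0.13 (SE, 1.37-fold higher, adjusted p = 0.0229, limma) in the averaged effect. For Slc25a20 the log2 signal was 11.33 to 12.52 in LC (median 11.68), 11.66 to 12.18 in LE (median 12.00), 12.01 to 12.91 in OC (median 12.45) and 11.83 to 12.71 in OE (median 12.16). Slc25a20, the carnitine-acylcarnitine carrier, overlapped between genotypes on both diets, with 2 of 6 obese rats above all lean rats on each diet. Its averaged difference was 0.45 ± 0.13 (SE, 1.37-fold higher, adjusted p = 0.0372, limma). On a single diet, adjusted p for Cpt2 was 0.0733 in OC vs. LC and 0.486 in OE vs. LE (limma). For Slc25a20 it was 0.0740 and 0.618, respectively. The call of Slc25a20 was lost on leaving out 1 of 13 arrays in turn (LC replicate 2, 3, 4 or 6, LE replicate 9, 11 or 12, OC replicate 13, 14, 15 or 17, OE replicate 21 or 23, adjusted p 0.0502 to 0.0754), with arrays centred on their median (0.0551) or with Dbp and Arntl as covariates (0.0888).

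Cpt1a, the liver form of carnitine palmitoyltransferase 1 and the rate-setting step of the pathway, was not called in spite of a larger difference. Cpt1a had log2 signals of 12.72 to 15.85 in LC (median 14.66), 13.67 to 16.07 in LE (median 14.93), 14.17 to 15.85 in OC (median 15.22) and 14.72 to 16.34 in OE (median 15.93). Each genotype comparison overlapped, and LC alone spanned over 3 log2 units. In the averaged effect Cpt1a differed by 0.77 ± 0.32 (SE, 1.70-fold higher, adjusted p = 0.175, limma), with a residual SD of 0.906 that was larger than in 99.5% of transcripts. Signals of Crat (log2) were 7.37 to 10.18 in LC (median 9.40), 8.93 to 11.21 in LE (median 9.51), 8.23 to 10.44 in OC (median 10.06) and 8.54 to 10.77 in OE (median 9.77). Crat, which makes acetylcarnitine, overlapped between all groups, had a residual SD of 0.903 and differed by 0.29 ± 0.32 (SE). The log2 signal of Slc22a5 was 8.62 to 9.62 in LC (median 9.04), 9.06 to 9.83 in LE (median 9.46), 8.45 to 9.45 in OC (median 9.31) and 8.84 to 9.45 in OE (median 9.22). Slc22a5, the carnitine carrier of the plasma membrane, overlapped between genotypes on both diets and differed by -0.10 ± 0.13 (SE), and Cpt1b, at background, by -0.03 ± 0.12 (SE).

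**Figure D3:**
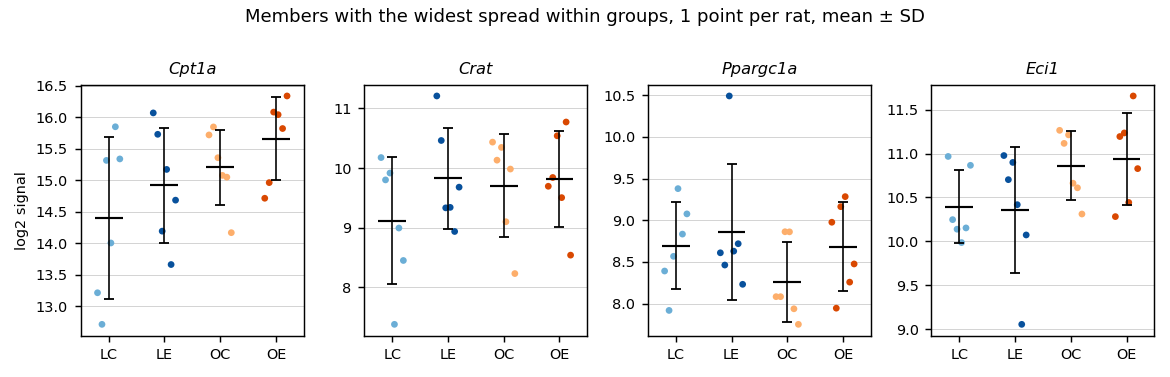
Log2 signal (y axis) of each rat in the groups LC, LE, OC and OE (x axis, 6 rats each) for the 4 genes with the largest spread within groups, with bars for the mean ± SD. Cpt1a ranges from 12.72 to 15.85 within LC, and LE replicate 9 stands apart for Ppargc1a at 10.49.

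Electron transfer flavoprotein takes the electrons from the acyl-CoA dehydrogenases. None of its genes was called in any comparison. The averaged difference was 0.30 ± 0.10 (SE) for Etfa (adjusted p = 0.0935), 0.28 ± 0.11 (SE) for Etfb and 0.09 ± 0.11 (SE) for Etfdh, the enzyme that hands the electrons on to ubiquinone (limma). For Etfa the log2 signal was 13.08 to 13.77 in LC (median 13.55), 13.47 to 13.94 in LE (median 13.71), 13.48 to 14.38 in OC (median 13.94) and 13.55 to 14.03 in OE (median 13.96). In OC 5 of 6 rats were above all rats of LC for Etfa, and in OE 4 of 6 were above all rats of LE.

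Of the genes of ketone bodies 1 of 3 was called. Acat1 had log2 signals of 14.21 to 15.01 in LC (median 14.53), 14.29 to 14.77 in LE (median 14.65), 14.92 to 15.37 in OC (median 15.11) and 14.32 to 15.49 in OE (median 15.12). Acat1 encodes the mitochondrial acetoacetyl-CoA thiolase, which also serves isoleucine breakdown. In both obese groups 5 of 6 rats were above all lean rats on the same diet, and OE replicate 23 was at 14.32, near the lowest lean rats. In the averaged effect Acat1 differed by 0.49 ± 0.12 (SE, adjusted p = 0.00869, limma). Neither diet alone passed for Acat1 (adjusted p = 0.0737 in OC vs. LC and 0.266 in OE vs. LE, limma). Signals of Bdh1 (log2) were 14.57 to 15.17 in LC (median 14.68), 14.62 to 15.10 in LE (median 14.71), 14.17 to 14.67 in OC (median 14.59) and 13.55 to 14.75 in OE (median 14.47). Bdh1 interconverts acetoacetate and β-hydroxybutyrate, and 5 of 6 rats of OE lay below all rats of LE. Its averaged difference was -0.39 ± 0.12 (SE, 1.31-fold lower, adjusted p = 0.0533, limma), just outside the threshold. Oxct1, at background, differed by -0.20 ± 0.14 (SE).

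The last group holds a coactivator and 2 uncoupling proteins. The log2 signal of Ucp2 was 10.14 to 11.23 in LC (median 10.63), 10.09 to 11.17 in LE (median 10.55), 11.13 to 12.03 in OC (median 11.36) and 10.99 to 11.90 in OE (median 11.79). Ucp2, an uncoupling protein of the inner membrane that in liver is known from Kupffer cells and from fatty hepatocytes, was higher in 5 of 6 rats of OC than in all rats of LC and in 5 of 6 rats of OE than in all rats of LE. The averaged difference for Ucp2 was 0.97 ± 0.14 (SE, 1.96-fold higher, adjusted p = 2.3e-05, limma), with 0.83 ± 0.20 (SE, adjusted p = 0.0164) in OC vs. LC and 1.11 ± 0.20 (SE, adjusted p = 0.0013) in OE vs. LE. In OC vs. LC the call of Ucp2 was lost without LC replicate 4 or OC replicate 15 (adjusted p 0.0612 and 0.0582). With the methods' t-test and Benjamini-Hochberg adjustment the call of Ucp2 was lost on both diets (0.112 in OC vs. LC and 0.051 in OE vs. LE). Kupffer cell and macrophage markers gave no call among 8 genes in any comparison, with a median averaged difference of -0.05. Of these markers 6 of 8 had a value above 0 in OC vs. LC and 3 of 8 in OE vs. LE. The part of Kupffer cells in the values of Ucp2 was not tested. The neighbouring gene Ucp3 ends 10479 bases before the start of Ucp2 on GRCr8 chromosome 1 and differed by -0.15 ± 0.12 (SE), at background. Ppargc1a, the coactivator PGC-1α, differed by -0.30 ± 0.22 (SE) (adjusted p = 0.52, limma), with a residual SD of 0.604.

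Exact permutation tests over all splits of 12 rats into groups of 6, two-sided, gave the smallest p that they allow, 0.00216, for Hadhb and Acadl on both diets, for Hadha in OC vs. LC, and for Acad11 and Acadm in OE vs. LE. These are the genes whose groups did not overlap. There were 3 of them in OC vs. LC, where 2.02% of all transcripts did not overlap, and 4 in OE vs. LE, where 1.76% did not.

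The obese livers also differed in markers of other cells and of blood. In the averaged effect 6 of 8 red blood cell markers were called higher (the mean log2 signal of the list spanned 9.38 to 10.10 in LC and 9.46 to 10.09 in LE, against 10.14 to 10.80 in OC and, in OE, 10.00 to 10.70) and 4 of 8 stellate cell markers (8.18 to 8.36, 7.83 to 8.39, 8.45 to 8.97 and 8.31 to 9.19). There was 1 marker each of endothelial cells, neutrophils and adipocytes called higher, among 7, 6 and 7 genes, and 0 among 6 bile duct markers. Of 9 hepatocyte markers Apoa1 was called higher and Cps1 and Tat lower. Of all transcripts, 3.56% were called higher and 2.95% lower in the averaged effect. The part of these cells in the values of the pathway was not tested. In a bulk sample, fewer cells of a type and less RNA per cell cannot be told apart. Markers of mitochondrial content gave no call among 9 genes, but 5 of 9 had an unadjusted p under 0.05 (limma), as 19 of the 32 genes of the pathway and 17.8% of all transcripts did. Of these markers 7 of 9 had a value above 0, with a median averaged difference of 0.19 beside 0.25 for the pathway, and the list means were 12.48 to 12.76 in LC and 12.45 to 12.65 in LE, against 12.51 to 12.72 in OC and, in OE, 12.53 to 12.78. The part of mitochondrial content in the values of the pathway was not tested.

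The second question was whether ecdysterone changed these genes. No gene of the pathway was called in LE vs. LC, OE vs. OC or the interaction, where 0% of all transcripts were called (limma). At an unadjusted p under 0.05 there were 0 of the 32 genes in LE vs. LC, 1 in OE vs. OC (Decr1) and 1 in the interaction (Echs1), beside 813, 1322 and 912 of all transcripts. With a fold over 1.3 and an unadjusted p under 0.05, 0 of 32 passed in LE vs. LC, where 2.62% of all transcripts did, and 1 in OE vs. OC, where 4.23% did, and the methods' t-test gave 0 in both. The median difference of the 32 genes was 0.05 in lean rats (LE vs. LC) and -0.04 in obese rats (OE vs. OC), beside -0.0033 and -0.0021 over all transcripts. When 1 array was left out, the first ranged from 0.02 (without LC replicate 3) to 0.11 (without LE replicate 11) and the second from -0.09 (without OE replicate 21) to 2.7e-04 (without OC replicate 14).

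The genes with the smallest p in OE vs. OC were Decr1, Acadm and Cpt2. Decr1 differed by 0.40 ± 0.18 (SE) (unadjusted p = 0.039, limma), Acadm by 0.28 ± 0.15 (SE) and Cpt2 by -0.32 ± 0.18 (SE). In LE vs. LC they were Slc22a5 (0.38 ± 0.19 (SE), unadjusted p = 0.0518, limma), Eci2 (0.24 ± 0.14 (SE)) and Crat (0.71 ± 0.45 (SE)). In the interaction they were Echs1 (-0.55 ± 0.25 (SE)), Eci2 (-0.37 ± 0.20 (SE)) and Acaa2 (-0.40 ± 0.23 (SE)). The 95% interval of the difference lay within a fold of 1.5 in either direction for 25 of 32 genes for LE vs. LC, as it did for 21 of 32 for OE vs. OC. For Hadhb it ran from -0.27 to 0.31 in lean and from -0.35 to 0.23 in obese rats, and for Acadl from -0.16 to 0.34 and from -0.08 to 0.41. For Cpt1a it was wide, from -0.41 to 1.43 in lean and from -0.46 to 1.38 in obese rats, so that a 2-fold difference lay inside both intervals.

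**Figure D4:**
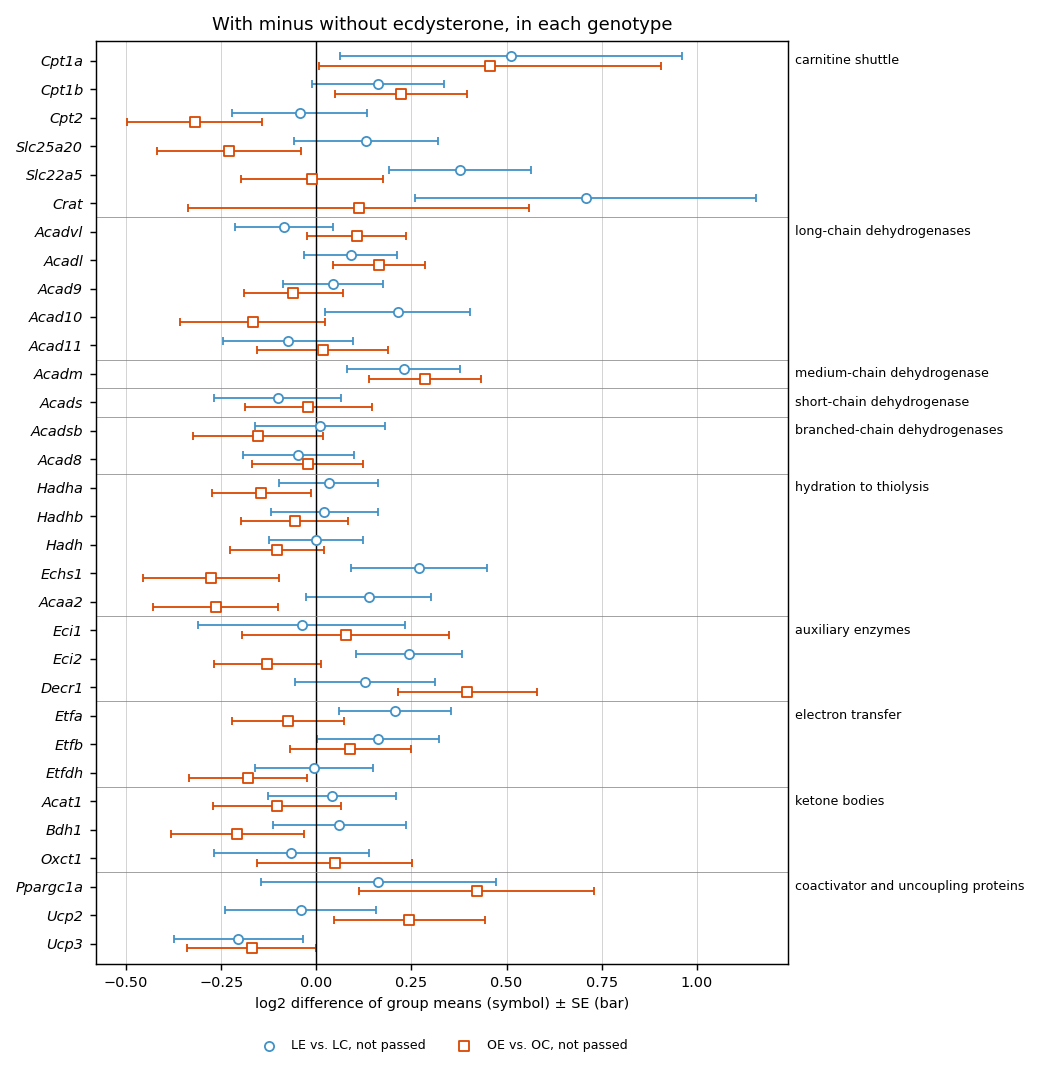
Log2 difference between rats with and without ecdysterone (x axis) for each of the 32 genes (y axis, grouped by role), with circles for LE vs. LC and squares for OE vs. OC (6 rats per group) and bars for the SE. No gene passed the threshold in either comparison, and the widest bars are those of Cpt1a and Crat.

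A pair of further genes was set beside the pathway, since the rats were not fasted and the time of day at which each was killed is not in the labels. Dbp, an output gene of the circadian clock, ranged from 6.79 to 14.28 in the 12 lean rats and from 9.73 to 14.29 in the 12 obese rats. Pdk4, a kinase gene that rises on fasting, ranged from 11.92 to 14.89 and from 12.27 to 15.06. Pdk4 itself was not called, but its value was highest in OE, at 1.13 ± 0.44 (SE) in OE vs. OC (unadjusted p = 0.015, adjusted p = 0.858, limma) and 1.14 ± 0.44 (SE) in OE vs. LE (unadjusted p = 0.0144, adjusted p = 0.232, limma). The relations pool both diets. Within each genotype, 0 of the 128 relations (32 genes, 2 reference genes, 2 genotypes) passed after Benjamini-Hochberg adjustment of permutation p-values from 100000 resamples. The largest Pearson correlation was that of Cpt1a with Dbp in obese rats (n = 12), with r = 0.775 (permutation p = 0.00403, adjusted p = 0.419) and Spearman's rho = 0.678 (permutation p = 0.0191, adjusted p = 0.392). Without the 2 rats farthest from the median of Dbp, r was 0.676 (permutation p = 0.0325). In lean rats the same relation had r = 0.508 (permutation p = 0.0929, adjusted p = 0.566). By Spearman's rho the largest were those of Ppargc1a with Dbp in lean rats (n = 12, rho = 0.790, permutation p = 0.00351, adjusted p = 0.267, r = 0.618, permutation p = 0.0175, adjusted p = 0.419) and of Echs1 with Dbp in obese rats (n = 12, rho = -0.776, permutation p = 0.00417, adjusted p = 0.267, r = -0.577, permutation p = 0.0423, adjusted p = 0.419). Without the 2 rats farthest from the median of Dbp, r was 0.682 (permutation p = 0.0121) and -0.431 (permutation p = 0.209), respectively. Further relations with Dbp, each at adjusted p = 0.419, included Etfa in lean (r = -0.62, permutation p = 0.024) and obese rats (r = -0.63, permutation p = 0.0244). Others in lean rats were Acat1 (r = -0.667, permutation p = 0.0206), Ucp2 (r = 0.633, permutation p = 0.0293) and Acadsb (r = -0.608, permutation p = 0.0364). In obese rats r was -0.283, 0.476 and -0.572, respectively. With Pdk4 in lean rats, Etfa had r = 0.623 (permutation p = 0.026) and Ppargc1a r = -0.588 (permutation p = 0.0327), each at adjusted p = 0.419. Spearman's rho of Ppargc1a with Pdk4 in lean rats was -0.727 (permutation p = 0.00982, adjusted p = 0.386). For Etfa and Ppargc1a, r with Pdk4 in obese rats was 0.0727 and -0.258. With 12 rats, a moderate relation can be missed. With Dbp and a further clock gene, Arntl, as covariates, a setting chosen after seeing the data, 12 genes were called in the averaged genotype effect, where 6.38% of all transcripts were, among them 10 of the 12 above (all but Slc25a20 and Acadsb).

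Of 31 further genes of mitochondrial oxidation and ketogenesis, 2 were called higher and 1 lower in the averaged genotype effect. Of all transcripts, 3.56% were called higher and 2.95% lower, so these counts do not set the list apart. The median difference of the list was 0.0079. For Acot2 the log2 signal was 9.11 to 11.08 in LC (median 10.14), 9.66 to 11.05 in LE (median 10.42), 10.20 to 11.49 in OC (median 11.20) and 10.83 to 12.13 in OE (median 11.14). Acot2 encodes a thioesterase that releases fatty acids from acyl-CoA in the matrix, and its averaged difference was 0.90 ± 0.20 (SE, 1.87-fold higher, adjusted p = 0.00336, limma). Acsm3 had log2 signals of 11.57 to 12.63 in LC (median 12.15), 11.54 to 13.78 in LE (median 12.42), 9.66 to 11.69 in OC (median 10.93) and 10.06 to 11.38 in OE (median 10.68). Acsm3, a medium-chain acyl-CoA synthetase of mitochondria, had the largest difference of the list, at -1.59 ± 0.23 (SE, 3.02-fold lower, adjusted p = 1.9e-05, limma). Signals of Bdh2 (log2) were 6.45 to 7.44 in LC (median 7.31), 7.12 to 7.76 in LE (median 7.37), 7.57 to 8.64 in OC (median 7.76) and 7.43 to 7.88 in OE (median 7.53). Bdh2, a cytosolic dehydrogenase related to Bdh1 by name, differed by 0.44 ± 0.12 (SE, 1.36-fold higher, adjusted p = 0.0281, limma). Of 18 regulators, 0 were called by limma in the averaged effect and 7 had an unadjusted p under 0.05, where 17.8% of all transcripts did, with Ppara, the gene of PPARα, at 0.31 ± 0.24 (SE).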

How the data were processed

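Total liver RNA of 24 rats (6 per group, 1 array per rat) was hybridised to Clariom S rat arrays of Affymetrix. The authors corrected the background, normalised the arrays together and summarised the probes by the GCCN-SST-RMA algorithm (Expression Console 1.4), and they deposited the result as log2 signals of each array. A second deposited table of the same log2 signals differed from the first by at most 0.005 and was used as an alternative. The group means, fold changes and p-values that the authors computed in the deposited table were not used. Scanner files were not analysed here, so the background correction was taken as given. Since the arrays were normalised together, a shift of all transcripts in 1 group would not be seen.

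For all 23188 transcripts, 1 linear model with 4 group means and no covariate was fitted (R 4.3.3, limma 3.58.1, default lmFit and eBayes, 20 residual and 8.391 prior degrees of freedom), without a filter on low signals. The comparisons were OC vs. LC, OE vs. LE, their mean (the averaged genotype effect), LE vs. LC, OE vs. OC and the interaction, each adjusted by Benjamini and Hochberg over all transcripts. Where a member had more than 1 probe set (3 members), the brightest over all arrays was taken. Exact permutation tests and correlations were run in Python 3.11.15 with SciPy 1.17.1. The fit was tested on simulated data, where recovery was required only for changes larger than any found among the members. How often smaller changes are recovered cannot be read from that requirement. The number of arrays limits the precision.

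The 32 members and all gene lists were chosen with earlier results of these data known. Every member is accounted for. Full values are given for members called in a genotype comparison and for the member with the largest averaged difference of each role, for the 3 members with the smallest p in each ecdysterone comparison, and for called genes of the 2 further lists. Alternatives were the methods' Student test, a fit of 2 groups alone, median centring, quantile normalisation, 2 filters on low signals, array weights, a robust eBayes with an intensity trend, the second table, the mean of all probe sets and leaving out each array in turn. Values of some single genes of the further lists are not reported here.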

Additional observations from a re-analysis of the deposited data

Results flagged for a closer look

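Within groups of 6 rats, 9 of 128 combinations of gene and group held a rat whose gap to the nearest other exceeded Dixon's 95% critical value, where chance flags about 1 in 20 groups (6.4 of 128). OE replicate 23 was the low rat in 3 of them, at 9.88 for Acad9 (others 10.29 to 10.54), 13.11 for Acadm (others 13.52 to 13.71) and 13.32 for Echs1 (others 14.04 to 14.46), and it was the lowest of its group for 10 of the 32 genes and the highest for 5. Ucp2 was flagged in both obese groups, with OC replicate 15 high at 12.03 (others 11.13 to 11.46) and OE replicate 19 low at 10.99 (others 11.76 to 11.90). Hadhb was high in OE replicate 21 at 14.48 (others 13.91 to 14.12). Ppargc1a was high in LE replicate 9 at 10.49 (others 8.23 to 8.72). Acads was high in OC replicate 14 at 9.18 (others 8.77 to 8.92), and Slc22a5 was low in OC replicate 18 at 8.45 (others 9.13 to 9.45). The cause of these values was not tested.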

How the results depend on the processing

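The 5 genes called in OC vs. LC, where 2.59% of all transcripts were called, became 3 with the methods' t-test after Benjamini-Hochberg adjustment (1.1% of transcripts), 9 after leaving out the transcripts whose signal was below the median (5.96%), 9 with a robust eBayes with an intensity trend (2.71%) and 8 with array weights (3.09%), and ranged from 3 (without LC replicate 4 or OC replicate 15) to 7 when 1 array was left out. The 5 in OE vs. LE (2.11% of transcripts) became 3 with the methods' t-test (0.578%) and ranged from 3 (without OE replicate 24) to 5. The 12 in the averaged effect (6.52% of transcripts) ranged from 10 to 13 without 1 array. Under the other alternatives they ranged from 11, as with arrays centred on their median (6.38%), to 14. The 14 came from leaving out the transcripts whose signal was below the median (13.6%). The ecdysterone comparisons and the interaction stayed at 0 members under the alternatives run for them. Of the 128 relations with Dbp and Pdk4, 0 passed with all rats or without the 2 farthest, and no other alternative was run for them. Over 22 calls of single genes and 746 alternatives, 689 calls were kept, 57 were lost and 0 changed sign. These totals include alternatives that could hardly change a call. Among those were the second table, the mean of all probe sets for genes with a single probe set, and left-out arrays of neither compared group. The calls of Hadhb and Acadl on both diets and of Hadha in OC vs. LC were kept under all alternatives. The cause of the other changes was not tested. No paired analysis was possible because the groups held different rats, assigned at random to a diet within each genotype.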
